A study of Caenorhabditis elegans with 4 samples.

Results

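The heterochronic genes set the order of stage-specific cell fates in the larvae of the nematode Caenorhabditis elegans. This account follows 9 of them: lin-14, lin-28, lin-41, daf-12, lin-46, lin-29, lin-42, alg-1 and alg-2. They were taken by name, and RefSeq transcript accessions were mapped to gene symbols of the WBcel235 assembly to find them. Of the 9, 8 had a value, out of 41614 genes in the whole table. No annotated accession of alg-1 matched a row, so alg-1 was not analysed here.

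RNA-seq was done on whole animals in 2 groups, dve-1 mutant animals with the allele uf171 and wild type animals, with 2 libraries each and 4 in all. Both groups were raised at 25 °C on OP50 bacteria. The gene dve-1 codes for a homeobox transcription factor with a known part in the stress response of mitochondria. The labels give the stage as L4, the last larval stage, and the series title as early L4, whereas the protocol text describes about 1200 L1 larvae, so the stage itself was a question for these genes. What uf171 does to the gene is not given in the labels. No label ties a library to its own culture, and p-values therefore reflect only how these libraries vary, possibly for technical reasons. Levels are FPKM, fragments per kilobase of transcript, scaled to the number of mapped fragments.

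In the textbook pathway, early factors hold larvae in early fates until microRNAs silence them. LIN-14, LIN-28 and HBL-1 act in the first stages and are brought down by the microRNAs lin-4 and let-7 and by relatives of let-7. LIN-41 is the main target of let-7, and its fall in the L4 stage frees LIN-29, which switches skin cells to the adult programme. LIN-42, the worm homolog of Period, cycles with each molt, and the Argonautes ALG-1 and ALG-2 load the microRNAs.

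Depth was estimated from the spacing of low values. It came to 14300000 and 14000000 fragments in dve-1 mutant replicates 1 and 2 and 14900000 and 15300000 in wild type replicates 1 and 2. The gene dve-1 itself read 22.98 and 21.1 FPKM in the mutant libraries, against 14.2 and 13.9 FPKM in wild type. Without knowing the change that uf171 makes, this level is no check on the genotype. Mutant replicate 2 stood apart from the other 3 libraries in the yolk genes, the oocyte genes and 3 of 6 adult cuticle genes, the collagens col-7, col-19 and col-62. col-19, an adult cuticle collagen that LIN-29 is known to activate, read 8.51 and 397 FPKM in the mutant libraries, in order of replicate, against 14.2 and 35.96 FPKM in wild type. The fold change of each member without mutant replicate 2 is therefore given below.

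The members spanned a wide range of levels. Over the 4 libraries, lin-42 averaged 1112 ± 214 FPKM (SD, n = 4), lin-29 60.6 ± 8.86, lin-28 45.4 ± 8.14, lin-14 21.1 ± 4.18, alg-2 13.3 ± 3.18, daf-12 10.2 ± 2.50, lin-41 9.86 ± 2.16 and lin-46 3.85 ± 1.61 FPKM. The ranges of lin-29 and lin-28 overlapped, with lin-29 above lin-28 in 3 libraries, and so did those of alg-2, daf-12 and lin-41. All other neighbours in this order were separated in every library. The highest library stood 1.41 to 2.38 times above the lowest, and only lin-46 went beyond 2-fold. lin-42 ranked above 98.6% to 98.9% of protein-coding genes in each library, lin-29 above 80.4% to 85.6%, and lin-46 above 32.6% to 42.5%.

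**Figure D1:**
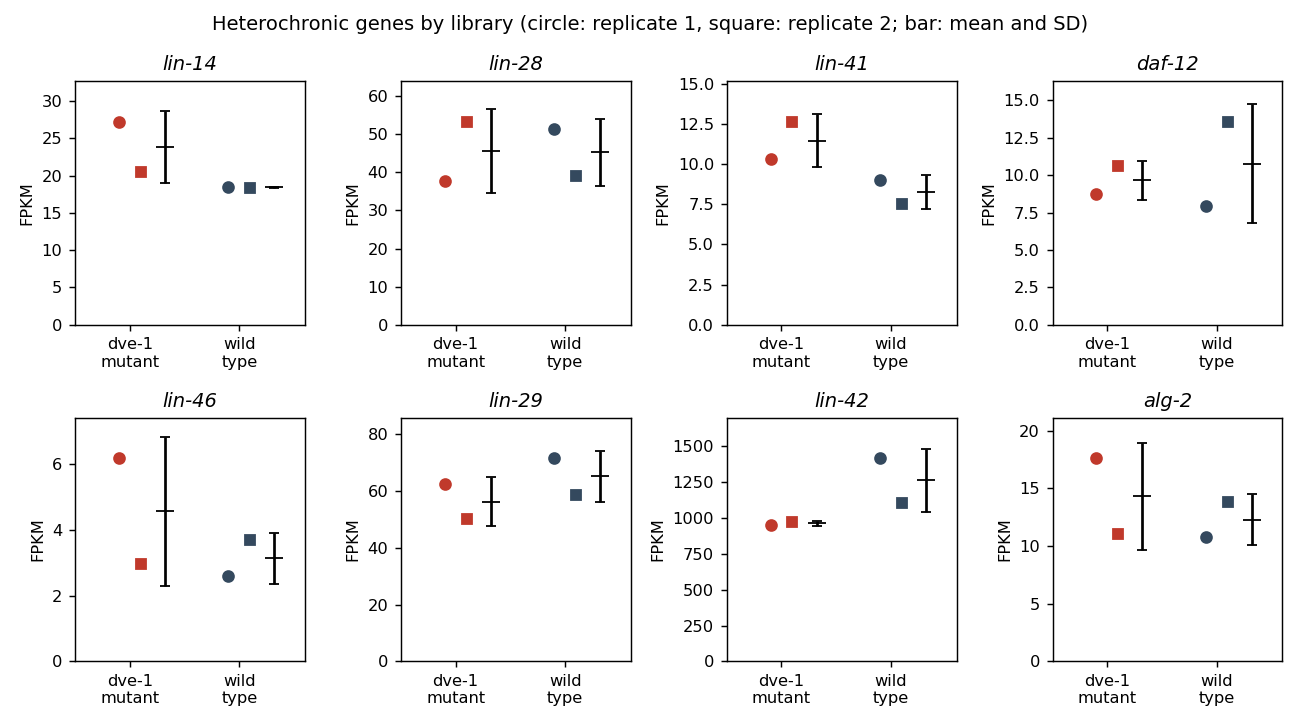
FPKM of the 8 measured heterochronic genes in the dve-1 mutant (red) and wild type (dark blue) libraries, with circles for replicate 1, squares for replicate 2, and the mean and SD of each group (n = 2) in black. Each axis starts at 0, and the groups do not overlap for lin-14, lin-41 and lin-42.

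Between the genotypes, 0 of the 8 members passed limma with a Benjamini-Hochberg adjusted p under 0.05, in a fit over 14664 genes that called 0.13% of them. All 8 are protein-coding, and of the 13479 protein-coding genes in this fit it called 1 higher and 0 lower, so most calls were of other genes. For each member the adjusted p was 0.99955, and 0 of 8 had an unadjusted p under 0.05, where 4.6% of all genes had one. The fit called 0.0682% of genes higher and 0.0614% lower in the mutant. Of the members, 5 were higher and 3 lower in the mutant by sign. Their median log2 fold change was 0.09, against -0.02 over all genes tested. The libraries of the 2 genotypes did not overlap for 3 of the 8, where 28.1% of all tested genes did not overlap. Of these 3, lin-14 and lin-41 had both mutant libraries higher, which held for 11.9% of all genes, and lin-42 had both lower, which held for 16.2%. With 2 libraries a group, an exact permutation test of 1 gene cannot go below p = 0.33.

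The early regulators lin-14 and lin-28 come first. lin-14 (T25C12.1; chromosome X, 11465560 to 11485871, plus strand, WBcel235) encodes a transcription factor that is highest in the first larval stage. It read 27.2 and 20.4 FPKM in the mutant libraries, against 18.44 and 18.37 FPKM in wild type. Both mutant libraries were above both wild type libraries, with mutant replicate 1 well above the rest. The means were 23.8 ± 4.81 FPKM in the mutant and 18.4 ± 0.0506 FPKM in wild type (SD, n = 2 each). The log2 fold change was 0.34 (SE 0.22, 95% interval -0.28 to 0.97, limma), 0.14 without mutant replicate 1 and 0.54 without mutant replicate 2.

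lin-28 (F02E9.2; chromosome I, 8407630 to 8410804, minus strand) encodes an RNA-binding protein that blocks the maturation of let-7. It read 37.8 and 53.3 FPKM in the mutant libraries, against 51.5 and 39.0 FPKM in wild type. Each genotype had 1 high and 1 low library, and the groups overlapped fully. The means were 45.5 ± 10.97 FPKM in the mutant and 45.2 ± 8.84 FPKM in wild type (SD, n = 2 each), with a log2 fold change of 0.00 (95% interval -0.76 to 0.76). That value was -0.24 without mutant replicate 2 and 0.24 without mutant replicate 1. The libraries ran in the order mutant replicate 2, wild type replicate 1, wild type replicate 2 and mutant replicate 1. That was also the order of 12 of 17 oocyte genes and 7 of 15 sperm genes. Genes of such a list are not independent of each other, and the share of all genes with this order was not counted. lin-28 is also known from the germline, and the part of germline RNA in its level was not tested. In whole animals, fewer cells of a type and less RNA per cell cannot be told apart.

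lin-41 (C12C8.3; chromosome I, 9334800 to 9342496, minus strand) encodes a TRIM-NHL RNA-binding protein that represses lin-29 in the skin and has a separate role in oocytes. It read 10.3 and 12.6 FPKM in the mutant libraries, against 8.997 and 7.53 FPKM in wild type. Both mutant libraries were higher, and mutant replicate 2 was the highest. The means were 11.5 ± 1.66 FPKM in the mutant and 8.27 ± 1.04 FPKM in wild type (SD, n = 2 each), a ratio of 1.39. limma gave a log2 fold change of 0.43 (SE 0.23, 95% interval -0.23 to 1.08), and 0.29 without mutant replicate 2. The separation rests on NM_001025827, an accession with 2.24 FPKM in mutant replicate 1 and listed at 0 elsewhere. The other accession, NM_001025828, overlapped at 8.04 and 12.6 FPKM in the mutant and 8.997 and 7.53 FPKM in wild type, with a log2 fold change of 0.27. The oocyte list had median FPKM of 17.9 and 62.9 in the mutant libraries, in order of replicate, against 33.1 and 21.7 FPKM in wild type. The part of oocyte RNA in the lin-41 difference was not tested.

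daf-12 (F11A1.3; chromosome X, 10644409 to 10666875, plus strand) encodes the nuclear receptor for dafachronic acids, steroid hormones that choose between reproductive growth and dauer arrest. It read 8.73 and 10.6 FPKM in the mutant libraries, against 7.95 and 13.6 FPKM in wild type. The mutant libraries lay between the wild type libraries. NM_001047774 gave 3.40 FPKM of the level in mutant replicate 2 and was listed at 0 elsewhere. For the gene, the log2 fold change of -0.11 (95% interval -1.04 to 0.83) turned to 0.25 without wild type replicate 2, and it was -0.23 without mutant replicate 2.

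lin-46 (R186.4; chromosome V, 12968855 to 12970730, plus strand) encodes a gephyrin-like protein that LIN-28 holds down in early larvae. It read 6.17 and 2.97 FPKM in the mutant libraries, against 2.59 and 3.69 FPKM in wild type. Mutant replicate 1 was the only library above 4 FPKM, and the groups overlapped. limma gave 0.38 on the log2 scale (SE 0.40, 95% interval -0.75 to 1.51), -0.05 without mutant replicate 1 and 0.81 when mutant replicate 2 was left out. For its single annotated transcript of 1365 nucleotides these values correspond to about 120 and 57 fragments in the mutant and about 53 and 77 in wild type, the thinnest coverage of the 8 members.

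The late regulator lin-29 (W03C9.4; chromosome II, 11917643 to 11935340, minus strand) encodes the zinc finger transcription factor of the larval-to-adult switch. It read 62.4 and 50.1 FPKM in the mutant libraries, against 71.5 and 58.7 FPKM in wild type. The groups overlapped, with wild type replicate 1 highest and mutant replicate 2 lowest. The means were 56.2 ± 8.71 FPKM in the mutant and 65.1 ± 9.01 FPKM in wild type (SD, n = 2 each), with a log2 fold change of -0.21 (SE 0.21, 95% interval -0.79 to 0.37), and -0.05 without mutant replicate 2. Its cofactor mab-10 read 81.9 and 56.3 FPKM in the mutant libraries, against 85.9 and 98.7 FPKM in wild type (log2 fold change -0.43, 95% interval -1.13 to 0.26). Both were lowest in mutant replicate 2, the library with the highest col-19.

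lin-42 (F47F6.1; chromosome II, 1233236 to 1252359, minus strand) read 949 and 975 FPKM in the mutant libraries, against 1415 and 1107 FPKM in wild type. Both mutant libraries were below both wild type libraries. The means were 962 ± 18.3 FPKM in the mutant and 1261 ± 218 FPKM in wild type (SD, n = 2 each), a ratio of 0.763. In limma the log2 fold change was -0.38 (SE 0.17, 95% interval -0.86 to 0.10), -0.20 when wild type replicate 1 was left out and -0.56 when wild type replicate 2 was. Without mutant replicate 2 it was -0.40. Annotated lin-42 transcripts run from 297 to 2753 nucleotides, so its FPKM depends on how fragments were shared out among short and long isoforms.

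alg-2 (T07D3.7; chromosome II, 873212 to 879885, plus strand) encodes an Argonaute that carries microRNAs alongside its close paralog ALG-1. It read 17.6 and 11.03 FPKM in the mutant libraries, against 10.8 and 13.8 FPKM in wild type. The groups overlapped, and mutant replicate 1 was highest, in the same order of libraries as lin-46. The log2 fold change was 0.18 (95% interval -0.71 to 1.07), -0.13 without mutant replicate 1 and 0.49 without mutant replicate 2. How fragments shared with alg-1 were divided between these paralogs is not given in the sources used here.

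**Figure D2:**
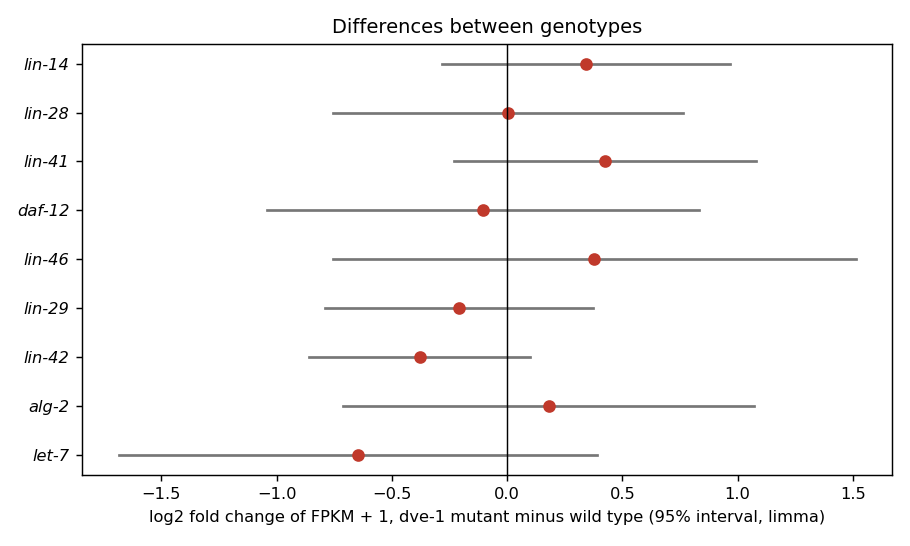
Log2 fold change of FPKM + 1, dve-1 mutant minus wild type, with 95% intervals from limma, for the 8 members and the let-7 entry. Every interval includes 0, and the point estimates run from -0.65 for let-7 to 0.43 for lin-41.

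FPKM are scaled to length, so members can be set against each other within a library. These are ratios of RNA, and protein was not measured. The lin-29 sum holds 2 of its 12 annotated accessions, and its annotated transcripts run from 954 to 2304 nucleotides. The ratio of lin-29 to lin-14 was 2.29 and 2.45 in the mutant libraries, against 3.88 and 3.20 in wild type, with means of 2.37 ± 0.113 in the mutant and 3.54 ± 0.480 in wild type (SD, n = 2 each). The ratio of lin-29 to its repressor lin-41 was 6.06 and 3.96 in the mutant, against 7.94 and 7.79 in wild type. Neither ratio overlapped between the genotypes, and both were lower in the mutant libraries. Of single genes tested, 28.1% did not overlap in either direction, and the share over other pairs of genes was not counted. With 2 libraries a group, an exact permutation test of 1 ratio cannot go below p = 0.33. lin-14 and lin-41 themselves did not overlap, so these ratios in part repeat the differences given above. The other 4 of 6 ratios computed did overlap. The ratio of lin-29 to lin-28 was 1.65 and 0.939 in the mutant and 1.39 and 1.51 in wild type, and that of lin-28 to lin-14 was 1.39 and 2.61 in the mutant and 2.79 and 2.12 in wild type. lin-41 over lin-14 was 0.378 and 0.619 in the mutant and 0.488 and 0.410 in wild type, and lin-46 over lin-28 was 0.163 and 0.0557 in the mutant and 0.0503 and 0.0946 in wild type. These are values of 4 libraries described without a test, and only the ratios of lin-29 to lin-14 and to lin-28 were named in the plan. In all 4 libraries lin-29 thus stood above lin-14 and lin-41, and in 3 of 4 above lin-28.

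The table gives 20 accessions for the members, of which 3, all of lin-42, were listed at 0 in every library. In a fit over 20088 single accessions that called 0.0498% of them, 0 of the 15 member accessions tested passed. Groups did not overlap for 6 of the 15, all lower in the mutant and 4 of them of lin-42, where 29% of all tested accessions did not overlap and 16.3% were lower in this way. The files do not pair accessions with isoform letters. By unadjusted p under 0.05 the count was 2 of 15, NM_059880 of lin-28 and NM_001027006 of lin-42, where 4.99% of all tested accessions had such a p.

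For lin-28 the accessions had different patterns. NM_059880 read 8.06 and 7.22 FPKM in the mutant libraries, against 14.6 and 12.5 FPKM in wild type, a ratio of 0.565. Both mutant libraries were well below wild type, at -0.75 on the log2 scale (SE 0.23, limma adjusted p = 0.880). NM_001025914, the more abundant accession, read 29.7 and 46.1 FPKM in the mutant, against 36.9 and 26.5 FPKM in wild type, and the groups overlapped. NM_059880 made up 21.3% and 13.5% of the lin-28 FPKM in the mutant libraries, against 28.3% and 31.96% in wild type.

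The lin-29 accessions also parted. NM_001267395 read 33.6 and 35.5 FPKM in the mutant libraries, against 51.5 and 39.8 FPKM in wild type, with no overlap (log2 fold change -0.38, 95% interval -0.96 to 0.19). NM_001129177 read 28.8 and 14.5 FPKM in the mutant, against 19.9 and 18.9 FPKM in wild type, so the mutant libraries lay on either side of wild type. The annotation lists 12 accessions for lin-29, of which the table holds these 2, and 7 for daf-12, of which it holds 2. The sums for both genes rest on those accessions alone.

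Among the lin-42 accessions, NM_001322706 carried the most, with 561 and 630 FPKM in the mutant libraries, against 842 and 646 FPKM in wild type. NM_001027005 followed with 289 and 309 FPKM in the mutant, against 433 and 316 FPKM in wild type. NM_001027006 read 37.3 and 35.9 FPKM in the mutant, against 49.7 and 54.6 FPKM in wild type (log2 fold change -0.50, 95% interval -0.94 to -0.06, limma adjusted p = 0.884). NM_001322705 was listed at 0 in mutant replicate 2 and read 61.0 FPKM in the other mutant library, against 90.4 and 90.3 FPKM in wild type. A listed 0 can be a failed estimate. All 4 accessions above 0 were thus lower in both mutant libraries than in either wild type library, although they share sequence and are not independent of each other.

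The lin-14 accessions overlapped between the genotypes. NM_077516 read 17.3 and 12.97 FPKM in the mutant libraries, against 10.7 and 13.2 FPKM in wild type, and NM_077515 read 9.90 and 7.46 FPKM in the mutant, against 7.78 and 5.20 FPKM in wild type. Their sum separated the genotypes, and neither did so alone.

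**Figure D3:**
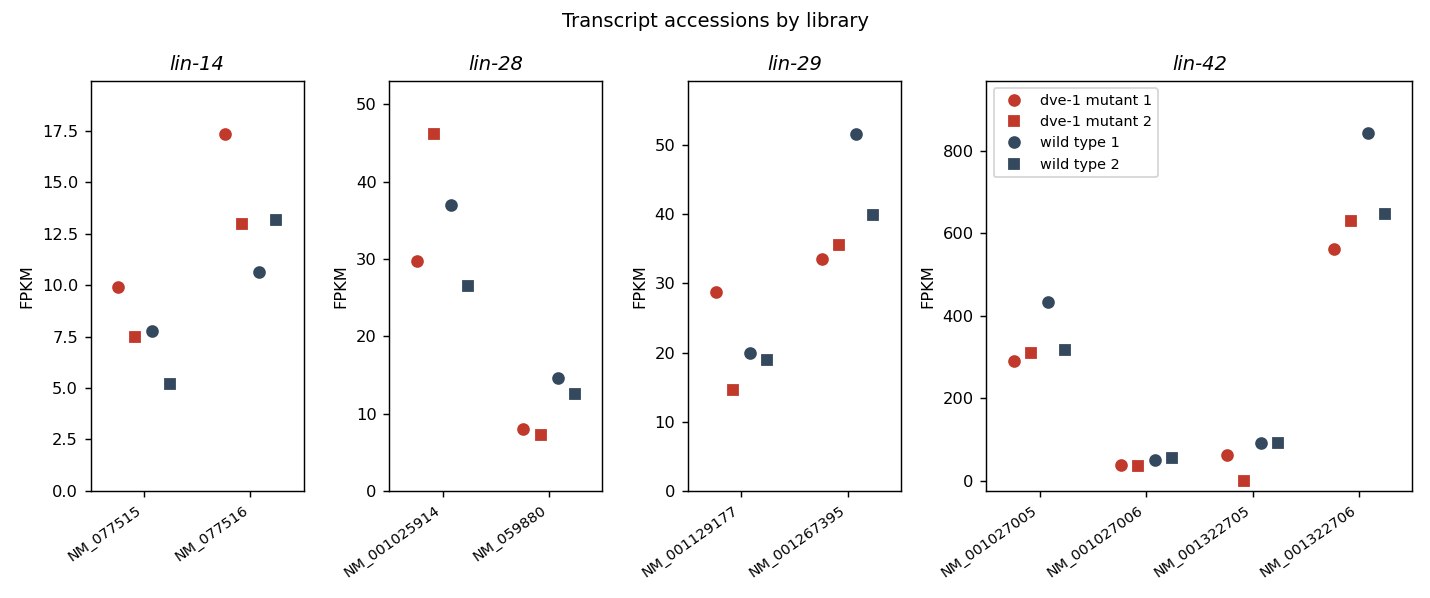
FPKM of single transcript accessions of lin-14, lin-28, lin-29 and lin-42 in the dve-1 mutant (red) and wild type (dark blue) libraries, with circles for replicate 1 and squares for replicate 2. The 4 lin-42 accessions, NM_059880 of lin-28 and NM_001267395 of lin-29 lie lower in both mutant libraries. NM_001322705 is listed at 0 in mutant replicate 2.

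Of the 5 microRNA genes of the pathway, let-7 alone passed the filter of 1 FPKM in 2 libraries. The let-7 entry, at chromosome X 14743590 to 14745321, read 415 and 812 FPKM in the mutant libraries, against 892 and 925 FPKM in wild type. Mutant replicate 1 was far below the other 3 libraries, and both mutant libraries were below wild type. On the log2 scale the difference was -0.65 (SE 0.37, 95% interval -1.68 to 0.39, limma adjusted p = 0.99955), -0.16 without mutant replicate 1 and -1.13 without mutant replicate 2. lin-4 read 39.1 FPKM in wild type replicate 1 and was listed at 0 in the other libraries, mir-241 read 37.4 FPKM in mutant replicate 2 alone, and mir-48 and mir-84 were listed at 0 throughout. Mature microRNAs are too short for such libraries, so these values say nothing of them.

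Other regulators of the pathway were measured in 13 of 14 cases, and 0 of the 13 passed. In sign 6 were higher and 7 lower in the mutant (median log2 fold change -0.01). grh-1, a Grainyhead factor of the skin and the molt, had the smallest p, at 26.8 and 20.8 FPKM in the mutant libraries, against 36.1 and 52.8 FPKM in wild type (log2 fold change -0.86, 95% interval -1.64 to -0.07, limma adjusted p = 0.985). The nuclear receptor nhr-25, needed for molting, read 10.2 and 5.76 FPKM in the mutant, against 5.04 and 4.19 FPKM in wild type (log2 fold change 0.64, SE 0.34). nhr-85, a Rev-Erb relative known from the timing of lin-4 transcription, read 20.1 and 15.6 FPKM in the mutant, against 9.48 and 14.5 FPKM in wild type. Both receptors were higher in both mutant libraries than in wild type, and both were highest in mutant replicate 1. Of the 13, groups did not overlap for 4 with the mutant higher and 4 with the mutant lower, against 11.9% and 16.2% of all genes.

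hbl-1, the hunchback-like early factor, was a low transcript in every library. It read 5.41 and 2.58 FPKM in the mutant, against 3.12 and 4.34 FPKM in wild type, with a log2 fold change of 0.03 (SE 0.40). lep-5, a non-coding RNA that helps to bring LIN-28 down, read 951 and 1033 FPKM in the mutant libraries, against 1182 and 1054 FPKM in wild type. It was among the most abundant transcripts of the pathway, beside lin-42, although FPKM of short RNAs is uncertain.

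The hormone pathway around DAF-12 had 7 tested members with 0 past the threshold, 3 higher and 4 lower in sign (median log2 fold change -0.11). din-1, a co-repressor that binds DAF-12, read 150 and 135 FPKM in the mutant libraries, against 161 FPKM in each wild type library. daf-9, the cytochrome P450 that makes dafachronic acid, read 5.70 and 2.69 FPKM in the mutant, against 2.66 and 5.19 FPKM in wild type, with 1 high and 1 low library in each genotype. dhs-16, a dehydrogenase of the same route, read 11.6 and 8.05 FPKM in the mutant, against 13.2 and 11.2 FPKM in wild type, and hsd-1 was listed at 0 throughout.

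The microRNA machinery had 9 tested members with 0 past the threshold, 5 higher and 4 lower by sign, and the median log2 fold change was 0.01. ebax-1, a ubiquitin ligase receptor that acts in microRNA decay, read 19.7 and 13.9 FPKM in the mutant libraries, against 20.8 and 23.3 FPKM in wild type. ain-2, a GW182 partner of the Argonautes, read 37.98 and 52.9 FPKM in the mutant, against 57.5 and 54.3 FPKM in wild type. xrn-2, the exonuclease that degrades microRNAs, read 42.5 and 45.6 FPKM in the mutant, against 39.7 and 37.6 FPKM in wild type. These 3 of 9 had groups that did not overlap, a share near the 28.1% of all tested genes, while drsh-1, the Drosha that starts microRNA processing, overlapped at 7.77 and 12.3 FPKM in the mutant and 9.94 and 6.91 FPKM in wild type.

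Over these lists and those that follow, limma passed 0 of 97 genes, where it called 0.13% of all genes tested. In that fit, unadjusted p under 0.05 was found for 4 of 14 molting-cycle genes and 2 of 6 adult cuticle genes. It was also found for 1 of 13 other regulators and for 0 genes of the other lists, where 4.6% of all genes tested had such a p. These lists were chosen with earlier results of these data known, so the counts are only described.

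Genes with known stage patterns were then read in each library. The 5 major sperm protein genes listed, which are made during hermaphrodite spermatogenesis in the L4 stage, stood between 322 and 900 FPKM in every library. The sperm list had median FPKM of 178 and 446 in the mutant libraries, against 464 and 308 FPKM in wild type. Sperm genes were lowest in mutant replicate 1 for 13 of 15 tested members. Among these, ssp-9 and ssp-11 had the same value in every library and the 5 major sperm protein genes had similar ones, so the members are not independent. Such genes are not a feature of L1 larvae, whose germline has barely begun to divide. In that respect none of the 4 libraries went with the L1 larvae of the protocol text. Whether a library was early L4, as in the series title, later L4 or older was not tested.

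The adult collagens col-7, col-19 and col-62 and the yolk genes vit-2, vit-4, vit-5 and vit-6 gave the same order of libraries in 7 of 7 cases. Mutant replicate 2 was highest, then wild type replicate 2, wild type replicate 1 and mutant replicate 1. col-7 read 0.558 and 75.8 FPKM in the mutant libraries, against 0.932 and 11.9 FPKM in wild type. vit-6, a yolk protein of the adult intestine, read 5.22 and 158 FPKM in the mutant, against 6.39 and 17.1 FPKM in wild type. The genotype groups overlapped for every one of the 7. Between the mutant replicates col-19 differed 46.6-fold, where lin-29 differed by a ratio of 0.803 and lin-28 by 1.41.

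The oocyte genes, from rme-2 to glp-1, were highest in mutant replicate 2 for 17 of 17 members, at 1.12 to 3.32 times the next library. In sign all 17 were higher in the mutant (median log2 fold change 0.39), with 0 past the threshold. Without mutant replicate 2, 0 of the 17 were higher and the median was -0.33. For yolk the median went the same way, at 1.47 with all libraries and -0.78 without mutant replicate 2.

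The other 3 genes of the adult cuticle list, the collagens bli-1, bli-2 and rol-6, were highest in a wild type library. bli-1 and bli-2, which form the struts of the adult cuticle, are made in the L4 stage. bli-2 read 818 and 832 FPKM in the mutant libraries, against 1629 and 1324 FPKM in wild type (log2 fold change -0.83, 95% interval -1.27 to -0.39, limma adjusted p = 0.468). bli-1 read 284 and 227 FPKM in the mutant, against 430 and 450 FPKM in wild type (log2 fold change -0.79, limma adjusted p = 0.559). rol-6 read 491 and 482 FPKM in the mutant, against 620 and 597 FPKM in wild type. All 3 had both mutant libraries below wild type, which held for 16.2% of all genes, and none passed. They are 3 of the 6 genes of the list, and the other 3 overlapped between the genotypes and were higher in the mutant by sign.

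Molting-cycle genes, which peak once in each larval stage as lin-42 does, were lower in the mutant for 12 of 14 in sign (median log2 fold change -0.45), with 0 past the threshold. Groups did not overlap for 6 of the 14 with the mutant lower and 1 with the mutant higher, against 16.2% and 11.9% of all genes. The hedgehog-related genes wrt-1 and wrt-2 both read 120 and 84.5 to 84.6 FPKM in the mutant libraries, and wrt-1 read 204 and 166 FPKM in wild type, where wrt-2 read 182 and 191 FPKM. nas-37, a protease that opens the old cuticle, read 53.6 and 39.4 FPKM in the mutant, against 78.6 and 74.4 FPKM in wild type. Of the 2 genes higher in the mutant by sign, only the peroxidase gene mlt-7 had groups that did not overlap. mlt-7 read 32.2 and 31.5 FPKM in the mutant, against 14.8 and 13.5 FPKM in wild type (log2 fold change 1.12, 95% interval 0.63 to 1.61, limma adjusted p = 0.320). Mutant replicate 2 was the lowest library for 9 of the 14. The median was -0.32 without mutant replicate 2 and -0.70 without mutant replicate 1.

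The seam and the vulva are tissues whose development the pathway times. Of 4 tested seam genes 3 were lower by sign (median log2 fold change -0.18), but without mutant replicate 2 the median was 0.05 and 3 of 4 were higher. bro-1, a partner of the Runx factor in seam divisions, read 2.61 and 2.66 FPKM in the mutant, against 6.30 and 3.87 FPKM in wild type. Of 7 vulval genes 5 were lower by sign (median log2 fold change -0.18, and -0.41 without mutant replicate 2). zmp-1, a metalloprotease gene, read 2.97 and 3.44 FPKM in the mutant, against 8.59 and 3.60 FPKM in wild type. None of these 11 passed.

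**Figure D4:**
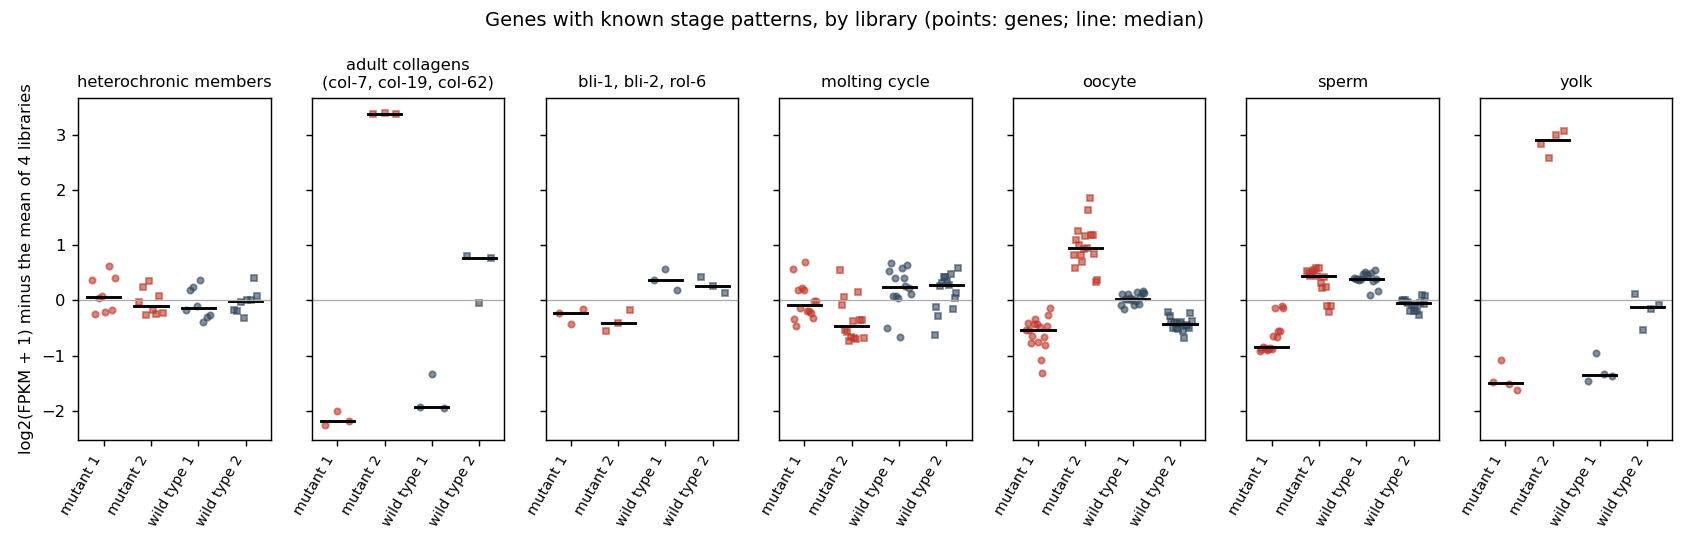
Log2(FPKM + 1) of each gene minus its mean over the 4 libraries, for the heterochronic members and lists of genes with known stage patterns, with mutant libraries in red left of wild type in dark blue and the list median as a black line. The collagens col-7, col-19 and col-62, yolk and oocyte genes are highest in mutant replicate 2, and bli-1, bli-2 and rol-6 are highest in wild type.

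Taken by library, mutant replicate 1 had the highest lin-14, lin-46 and alg-2 and the lowest lin-28, lin-42, let-7, col-19 and yolk levels and the lowest sperm median. Mutant replicate 2 had the highest lin-28, lin-41, col-19, yolk and oocyte levels and the lowest lin-29. The wild type libraries lay between them in col-7, col-19, col-62 and yolk and above both in lin-42. The 2 mutant libraries were thus farther apart from each other in those 3 collagens and the 4 yolk genes than the wild type libraries were, and how much of each member's difference goes with that spread was not tested. No staged reference series was used, and the lists did not give 1 common order of the libraries, so no order in developmental time is read from them.

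For the 7 members that span at least 0.5 on the log2 scale, the protein-coding genes with the nearest profile were found by the root mean square difference of centred log2(FPKM + 1) over the 4 libraries. F08F3.4 was nearest to lin-14, at a difference of 0.013, and vab-9, a claudin-like gene of epithelial junctions, was nearest to lin-29, at 0.012. coel-1 was nearest to lin-41 at 0.028, ZK354.9 to lin-42 at 0.013, snpc-1.3 to lin-46 at 0.038, nmur-3 to daf-12 at 0.020 and dlhd-1 to alg-2 at 0.022. Of 13478 other genes, 408 lay within 0.1 of lin-29, 278 of lin-42, 199 of alg-2, 192 of lin-14, 97 of lin-41, 56 of lin-46 and 44 of daf-12.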

How the data were processed

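The authors deposited a table of 52491 transcript accessions by 4 libraries whose header names no unit. FPKM is the unit used here for the values the authors deposited, since the values are fractional and Cufflinks is named beside TopHat2 and the genome ce11, without versions, per the submitters' processing notes. The annotation, the use of strand and any scaling between libraries were not stated in the labels.

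Each accession was looked up, with its version ignored, in RefSeq's WBcel235 gene table. A gene was found for 47645 of them (90.8%), and FPKM were summed per gene, so an unmatched accession lowers its gene. Transcript lengths came from Ensembl release 115. Depth was taken as the number of fragments that brought low values of single-transcript genes nearest to whole numbers, with 66.6% to 69.1% within 0.1.

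The fit was limma 3.58.1 (R 4.3.3) with its trend option, two-sided, on log2(FPKM + 1). A gene entered with 1 FPKM or more in 2 or more libraries, and p-values were Benjamini-Hochberg adjusted over all genes. Fold changes on this scale understate low genes. The fit was tested on simulated data, and tables were made in Python 3.11.15 with pandas 2.3.3. Across genes, libraries correlated at 0.912 within the mutant, 0.926 within wild type and 0.908 to 0.930 between the genotypes. Replicates were thus not more alike than every pair of libraries of different genotype.

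The members and the 11 lists beside them were chosen with earlier results of these data known. The rule for named genes took all members, the microRNAs, up to 4 genes a list by smallest p and the nearest profiles. The major sperm protein genes and hbl-1, lep-5, daf-9, hsd-1, col-7, col-62, rme-2 and glp-1 fall outside it and were chosen after their values were seen. Alternatives tried were the fit with no trend, 2 other scalings, other filters and pseudocount, coding genes alone, the largest accession of each gene, a replicate block, and each library left out. Single-accession tests and a crossed pairing were added after the data were seen.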

Additional observations from a re-analysis of the deposited data

How the results depend on the processing

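The member count past the threshold stayed at 0 under every alternative run. Over all genes the count of 19 was 86 without the trend, 3 with no filter, 10 at 5 FPKM and 10 with a pseudocount of 0.1. It was 0 in a separate fit of protein-coding genes alone, 0 with the replicate block and 0 with a crossed pairing. Leaving out 1 library leaves a lone library assumed to vary like the others, so those fits are read for effect size only. Replicate numbers were not shown to pair the libraries: deviations of same-numbered libraries correlated at -0.193 over genes, so the crossed pairing was added. Scaling, filters and blocks turned the sign of no member. Leaving out 1 library, the log2 fold change ran from 0.14 to 0.54 for lin-14, -0.24 to 0.24 for lin-28, -0.37 to -0.05 for lin-29, 0.29 to 0.56 for lin-41, -0.56 to -0.20 for lin-42, -0.05 to 0.81 for lin-46, -0.46 to 0.25 for daf-12 and -0.13 to 0.49 for alg-2. Leaving out mutant replicate 1 turned daf-12 (0.02), lin-46 (-0.048) and alg-2 (-0.13), mutant replicate 2 turned lin-28 (-0.24), and wild type replicate 2 turned lin-28 (-0.19) and daf-12 (0.25). List medians ran from -1.08 to 1.80 for adult cuticle, -0.78 to 3.62 for yolk, -0.20 to 0.18 for other regulators and -0.085 to 0.13 for the microRNA machinery. The cause was not tested. Matching accessions by the same version gave no value for the members, since none of their accessions has it. Depth limits lin-46 most.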
